A study of Glycine max with 6 samples.

Results

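The nuclear genes for the small subunit of Rubisco were described in leaves of 2 soybean (Glycine max) genotypes, HN44 and SN14, with 3 libraries each. The genes are LOC547605, RBCS1 and RBCS2, 3 of the 41759 genes in the deposited table. The rule that chose them uses gene numbers and NCBI symbols, but it was written with earlier results of these data known. The product of LOC547605 is not named in the tables used here, and it was taken as a small subunit gene from the choice of members alone. Plants of both genotypes grew in an experimental field under natural conditions, and leaf RNA was sequenced on a BGI platform. The series sets the 2 genotypes apart by their water use efficiency, but the labels do not say which is the more efficient, how old the leaves were, or whether each library is a plant of its own. The p-values below therefore rest on the spread among these libraries, part of which may be technical. Where 3 values are given for a genotype, they are in the order of its libraries 1, 2 and 3.

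Rubisco fixes carbon dioxide in the Calvin cycle and is the most abundant protein of a leaf. Its large subunit is encoded in the chloroplast genome, and its small subunit by a family of nuclear RBCS genes whose products are imported into the chloroplast and assembled with the large subunit. RBCS transcripts are abundant in green tissue and respond to light and sugar. Rubisco activase, a separate nuclear-encoded protein, removes inhibitory sugar phosphates from the enzyme.

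Values are FPKM, which the authors scaled for gene length and library depth, so that levels of different genes can be set side by side per length. The FPKM totals of the libraries were between 764674 and 821659 in HN44, against 856284 to 877305 in SN14, and the depth behind each value is unknown, as FPKM does not keep the read totals. HN44-3 took values between those of HN44-1 and HN44-2 in 1982 of 1997 genes that averaged at least 5 FPKM and differed over 2-fold between these libraries, or 99.2%. It may not be a separate replicate, so the main results of the small subunit genes are given with and without it. Counts over lists and other genes use all 6 libraries unless stated. Of the leaf markers, 10 light-harvesting and activase genes were in the table and all were detected, with a summed level of 30778 to 31327 FPKM in HN44 and 28541 to 31805 FPKM in SN14. The single seed storage gene that was matched, GY3, stood at 0.03 to 0.07 FPKM in HN44 and at 0.04 FPKM in SN14, and no gene carried a leghaemoglobin symbol from the nodule list.

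LOC547605 and RBCS2 lie on chromosome 19 and RBCS1 on chromosome 13. Coordinates are those of the authors' table, for which the sources used here give no genome build. RBCS2, with the synonyms RBCS-4 and SRS4, spans 7253654 to 7254873 on the forward strand, or 1220 bases. LOC547605 is given a span of 65694 bases on the same strand, 7189180 to 7254873. It ends at the same base as RBCS2 and contains the whole RBCS2 span. Only 74 of the 41759 genes have a span at least as long, and the median span is 3692 bases. In the RefSeq table of assembly Glycine_max_v4.0 the LOC547605 and RBCS2 genes do not overlap, and 1 other gene, LOC121174166, lies between them. Reads of RBCS2 could therefore have been divided between both gene models of the deposited table, and the separate levels of LOC547605 and RBCS2 are uncertain. RBCS1 (synonyms RBCS-1 and SRS1; 14043737 to 14044921, reverse strand, 1185 bases) overlaps no other gene of the table. Copies of 1 family can also share reads through near-identical sequence, whatever their position.

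**Figure D1:**
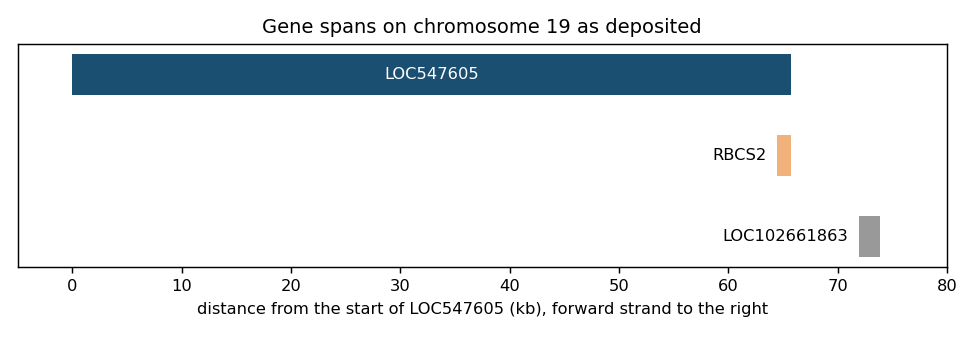
Spans on chromosome 19 as the authors' table gives them, drawn by distance in kilobases from the start of LOC547605. The RBCS2 span lies inside the end of the LOC547605 span, and LOC102661863 lies beyond both.

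The small subunit genes were the most abundant transcripts of every library. LOC547605 ranked 1, RBCS1 ranked 2 and RBCS2 ranked 3 in each of the 6 libraries, so the order of the levels did not change between genotypes. Each gene had a lower mean in HN44 than in SN14. For LOC547605 and RBCS1 the libraries of the genotypes did not overlap, and for RBCS2 they did. Of all tested genes, 10.5% were lower in HN44 without overlap, as were 21.2% of the other genes that averaged at least 50 FPKM. None of the small subunit genes passed the test for a difference between the genotypes. In bulk leaf RNA, fewer photosynthetic cells and fewer transcripts per cell cannot be told apart.

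LOC547605 stood at 31474, 58286 and 42162 FPKM in HN44, against 70215, 69185 and 87003 FPKM in SN14. Every HN44 library was below every SN14 library, and SN14-3 was the highest of all. The means were 43974 ± 13498 FPKM in HN44 and 75468 ± 10003 FPKM in SN14 (SD, n = 3 each), and 44880 ± 18959 FPKM in HN44 without HN44-3 (SD, n = 2).

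RBCS1 stood at 14284, 29373 and 20115 FPKM in HN44, against 35455, 37597 and 35948 FPKM in SN14. The SN14 libraries lay close together, with a highest level 1.06 times the lowest, while the HN44 libraries were spread 2.06-fold and all lay below them. The means were 21258 ± 7609 FPKM in HN44 and 36333 ± 1121 FPKM in SN14 (SD, n = 3 each), and 21829 ± 10669 FPKM in HN44 without HN44-3 (SD, n = 2).

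RBCS2 stood at 9959, 12105 and 10071 FPKM in HN44, against 21643, 20478 and 10661 FPKM in SN14. Its spread ran the other way from that of RBCS1: the HN44 libraries differed by 1.22-fold at most and those of SN14 by 2.03-fold. SN14-3 lay among the HN44 libraries, below HN44-2. The means were 10712 ± 1208 FPKM in HN44 and 17594 ± 6032 FPKM in SN14 (SD, n = 3 each), and 11032 ± 1517 FPKM in HN44 without HN44-3 (SD, n = 2).

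**Figure D2:**
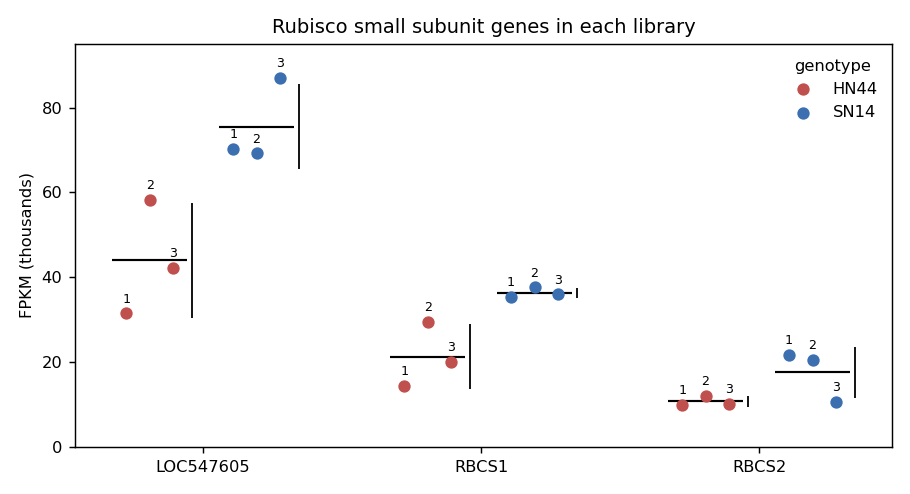
FPKM (divided by 1000) of the small subunit genes, 1 point per library (numbered 1 to 3), HN44 in red and SN14 in blue, with the mean as a horizontal line and its SD as a vertical line (n = 3 each). The HN44 points of LOC547605 and RBCS1 lie below all SN14 points, while SN14-3 of RBCS2 lies among the HN44 points.

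In the limma fit across all 27140 tested genes, on log2(FPKM + 1) with all 6 libraries, LOC547605 had a log2 difference, HN44 minus SN14, of -0.82 ± 0.26 (SE; 95% interval -1.44 to -0.20; adjusted p = 0.114). That of RBCS1 was -0.84 ± 0.27 (95% interval -1.49 to -0.18; adjusted p = 0.12) and that of RBCS2 was -0.65 ± 0.30 (95% interval -1.36 to 0.05; adjusted p = 0.208). Thus 0 of the 3 genes passed an adjusted p of 0.05, where 3.78% of all tested genes passed in either direction and 1.44% as lower in HN44. At an unadjusted p under 0.05, 2 of the 3 genes, LOC547605 and RBCS1, had a lower level in HN44, as did 8.59% of all tested genes. The same 2 genes were lower in HN44 with no overlap between the libraries of the genotypes, as were 10.5% of all tested genes. Among 2160 other genes that averaged at least 50 FPKM, 21.2% were. Without HN44-3 the log2 differences were -0.81 ± 0.35, -0.83 ± 0.36 and -0.61 ± 0.38 (SE) for LOC547605, RBCS1 and RBCS2, with limma adjusted p of 0.362, 0.367 and 0.476, where 0.553% of all tested genes passed. In the same order the unadjusted limma p were then 0.0563, 0.059 and 0.158, none of them under 0.05. Of the 27140 tested genes, 3830 were under 0.05 in that fit, in either direction.

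The median log2 difference of all tested genes was 0.17 as deposited, so the small subunit genes lay further below that median than below 0. After median-of-ratios scaling of the libraries the median was 0.02. LOC547605 then had a log2 difference of -1.01 (adjusted p = 0.147 in limma), RBCS1 of -1.02 (adjusted p = 0.145) and RBCS2 of -0.84 (adjusted p = 0.171). The share of calls that were higher in HN44 was 61.8% as deposited, 47.6% after this scaling, 49.6% after quantile normalization and 73.5% with the libraries scaled to the same FPKM total. Without HN44-2, RBCS1 passed (log2 difference -1.10, adjusted p = 0.0494 in limma), as did 961 of the 27140 tested genes. That fit kept HN44-1 and HN44-3 for HN44, and HN44-3 may not be a separate replicate. LOC547605 then had a log2 difference of -1.04 (adjusted p = 0.0575). Without SN14-3, the SN14 library with the least RBCS2, the log2 difference of RBCS2 was -0.98 (adjusted p = 0.0857 in limma).

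**Figure D3:**
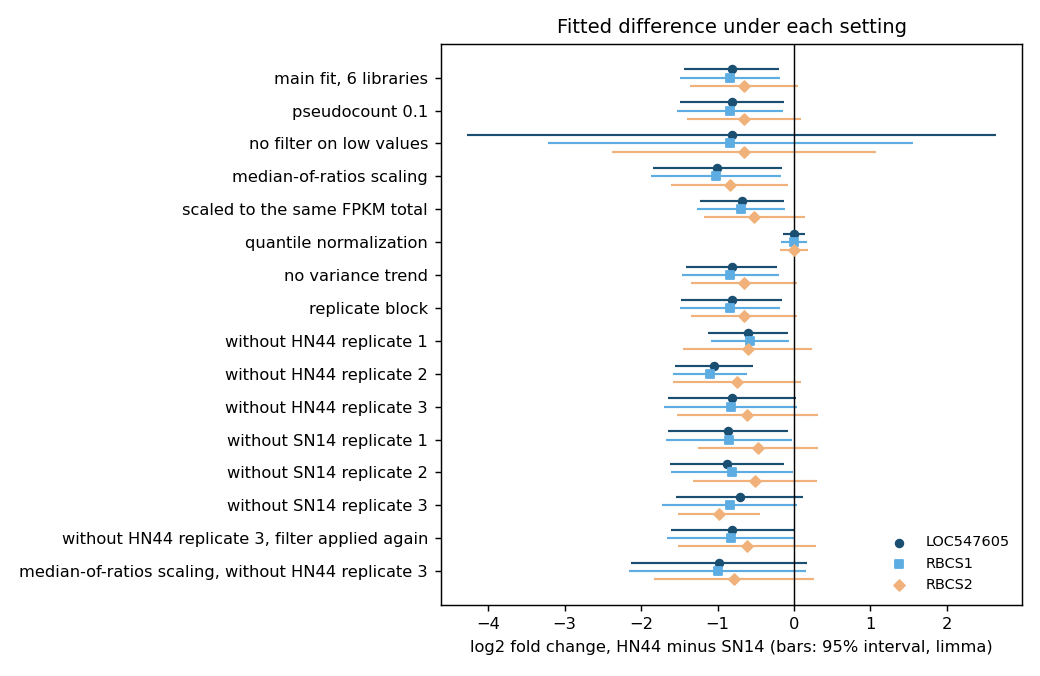
Log2 fold change, HN44 minus SN14, of each small subunit gene (points) with its 95% interval from limma (bars), in the fit with 6 libraries and under 15 other settings. All points lie below 0 except under quantile normalization, which sets genes of the same rank in every library to equal values, and the intervals are widest with no filter on low values. The pseudocount, filter, variance trend and replicate block settings change the intervals and leave the points as they are.

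Together the small subunit genes took 7.29%, 12.1% and 9.22% of the FPKM total in HN44, against 14.5%, 14.6% and 15.6% in SN14. The highest HN44 library was below the lowest SN14 library. The mean share was 9.55 ± 2.44% in HN44 and 14.9 ± 0.605% in SN14 (SD, n = 3 each), and 9.71 ± 3.43% in HN44 without HN44-3 (SD, n = 2). The difference, HN44 minus SN14, was -5.36 percentage points (exact permutation test over libraries, two-sided, p = 0.1, the smallest that 3 libraries against 3 can give), and -5.19 without HN44-3.

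The summed level of the genes was 55718, 99765 and 72348 FPKM in HN44, against 127314, 127260 and 133612 FPKM in SN14. The sum was thus nearly constant among SN14 libraries, at 1.05-fold, and varied 1.79-fold among HN44 libraries. It was 5.64 times the level of the next most abundant gene, the activase gene RCABETA, in HN44-1, 12.7 times in HN44-2 and 8.16 times in HN44-3. In the SN14 libraries it was 13.2 to 15.8 times the level of the next gene there, LOC100805310, a gene with the synonyms CAB3 and LHCP for a light-harvesting protein. The FPKM totals without the small subunit genes were 708956 to 721894 in HN44 and 722672 to 749992 in SN14, a narrower range than that of the totals with them.

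**Figure D4:**
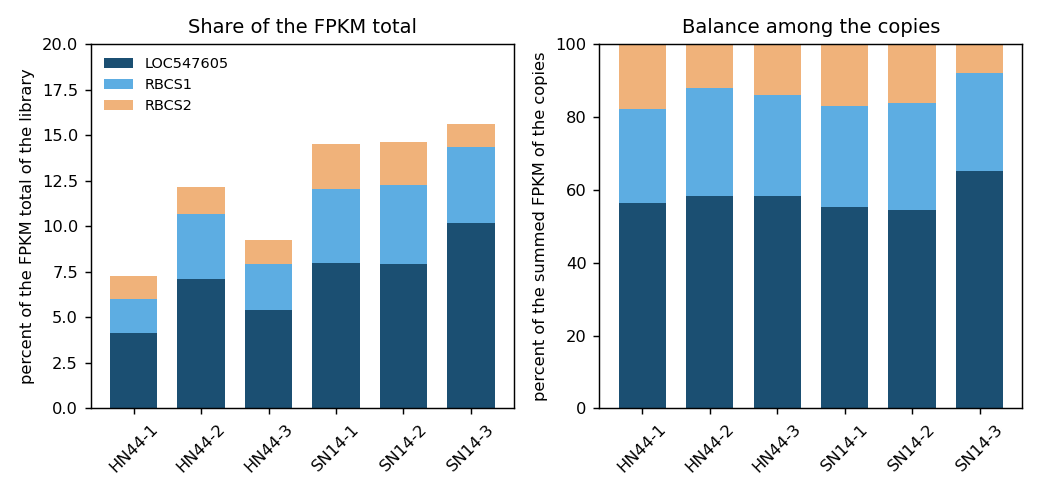
Left, percent of each library's FPKM total taken by each small subunit gene. Right, percent of their summed FPKM held by each copy. The summed share is 7.29% to 12.1% in HN44 and 14.5% to 15.6% in SN14, while the balance differs most in SN14-3, where RBCS2 holds 7.98%.

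The mean share of each copy in their summed FPKM differed between the genotypes by less than the spread between libraries, and 1 SN14 library, SN14-3, stood apart. LOC547605 held 56.5%, 58.4% and 58.3% of the summed FPKM in HN44, against 55.2%, 54.4% and 65.1% in SN14. RBCS1 held 25.6%, 29.4% and 27.8% in the HN44 libraries, against 27.8%, 29.5% and 26.9% in those of SN14. RBCS2 held 17.9%, 12.1% and 13.9% in the HN44 libraries, against 17.0%, 16.1% and 7.98% in those of SN14. The RBCS2 share was thus lowest in SN14-3, the library with the highest LOC547605 share. The mean differences, HN44 minus SN14, were -0.482, -0.471 and 0.953 percentage points for LOC547605, RBCS1 and RBCS2 (exact permutation tests, two-sided, p = 1.0, 0.7 and 0.8, and adjusted p = 1.0 for each over the 3 copies). Without HN44-3 they were -0.755, -0.559 and 1.31 percentage points. These values do not show that the balance is the same, since 3 libraries against 3 cannot give a p below 0.1.

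The ratio of LOC547605 to RBCS2 was 3.16, 4.81 and 4.19 in HN44, against 3.24, 3.38 and 8.16 in SN14. The ratio of LOC547605 to RBCS1 varied less, from 1.98 to 2.2 in HN44 and from 1.84 to 2.42 in SN14. When the overlapping LOC547605 and RBCS2 were added together, the chromosome 19 pair held 74.4%, 70.6% and 72.2% of the summed FPKM in the HN44 libraries, against 72.2%, 70.5% and 73.1% in the SN14 libraries. With 3 copies, the pair's share is what RBCS1 leaves, so it restates the RBCS1 shares given above. It lay within 70.5% to 74.4% in every library, SN14-3 included, although the division within the pair differed. The pair's summed level was 41434, 70392 and 52233 FPKM in the HN44 libraries, against 91858, 89663 and 97664 FPKM in those of SN14. The sum of both gene models is not changed by an exchange of reads as a count, but FPKM divides by each model's own length, so the sum is only an approximate guide. Whether the division of reads took part in the RBCS2 value of SN14-3 was not tested.

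As a fold, the highest over the lowest HN44 library exceeded the ratio of the genotype means for LOC547605 and RBCS1, but not for RBCS2. In FPKM, the differences between the means, HN44 minus SN14, were -31494 for LOC547605 and -15076 for RBCS1. The SD within HN44 was smaller, at 13498 and 7609 FPKM. HN44-2 exceeded HN44-1 by 1.85-fold for LOC547605, 2.06-fold for RBCS1 and 1.22-fold for RBCS2, while the SN14 mean exceeded the HN44 mean by 1.72-fold, 1.71-fold and 1.64-fold. HN44-3 lay 39.9% of the way from HN44-1 to HN44-2 for LOC547605 and 38.6% for RBCS1, against a median of 42.5% over the 1997 genes that differed over 2-fold between those libraries. For RBCS2, whose HN44 values were close together, it lay 5.21% of the way.

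Other abundant transcripts were set beside the small subunit genes. Among 92 other genes that averaged at least 1000 FPKM, the median log2 difference was -0.28, 66 had a value below 0, and 5 had one at or below that of LOC547605. In 20 of the 92 genes, or 21.7%, every HN44 library was below every SN14 library, against 10.5% of all tested genes. In 11 of the 92 every HN44 library was above every SN14 library, against 23.3% of all tested genes. Of the 2160 other genes that averaged at least 50 FPKM, 458, or 21.2%, were lower in HN44 without overlap, and 465 were higher. The share lower without overlap was thus not particular to the most abundant genes. HN44-1 was the lowest library in 57 of the 92. For these genes the highest library exceeded the lowest by a median of 1.37-fold in HN44 and 1.35-fold in SN14. A spread among SN14 libraries at or below that of RBCS1 was found in 2 of the 92, and a spread among HN44 libraries at or above that of RBCS1 in 11.

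Transcripts of Rubisco activase had higher means in HN44 for 3 of the 5 genes measured, where the small subunit genes had lower ones. The activase gene RCABETA stood at 9877, 7872 and 8867 FPKM in HN44, against 4121, 6898 and 4316 FPKM in SN14. Its libraries did not overlap and were higher in HN44, with a log2 difference of 0.83 ± 0.24 (SE). The limma adjusted p was 0.0983, and 0.339 without HN44-3. Every HN44 library was above every SN14 library in 23.3% of all tested genes. Limma called none of the 5 activase genes, where it called 2.33% of all tested genes as higher in HN44. Of the 5, 1 had an unadjusted p under 0.05, as did 27.3% of all tested genes in either direction. Their median log2 difference was 0.33, against 0.17 for all tested genes. RCA11 stood at 6487 to 8150 FPKM in HN44 and 3782 to 7429 FPKM in SN14, and RCAALPHA at 1021 to 1108 FPKM in HN44 and 813 to 1347 FPKM in SN14. The summed level of the small subunit genes was 2.86, 6.38 and 4.10 times that of the activase genes in the HN44 libraries, against 11.5, 7.91 and 14.5 times in the SN14 libraries. This ratio was lower in every HN44 library than in any SN14 library, and SN14-2, with the most activase transcript of the SN14 libraries, came nearest to HN44.

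In the light-harvesting and photosystem list limma called none of 8 genes, against 3.78% of all tested genes, and 3 had an unadjusted p under 0.05, against 27.3%. A log2 difference below 0 was found for 7 of the 8. The list's median was -0.31, against 0.17 for all tested genes. In HN44, 3 of its genes were lower without overlap, against 10.5% of all tested genes and 21.2% of those that averaged at least 50 FPKM. LOC100805310, the most abundant, stood at 6126 to 7282 FPKM in HN44 and 8077 to 10133 FPKM in SN14 (log2 difference -0.37 ± 0.18, SE; adjusted p = 0.224). CAB3 stood at 4862 to 6017 FPKM in HN44 and 5738 to 7424 FPKM in SN14, and PSAD, for a subunit of photosystem I, at 2933 to 4983 FPKM in HN44 and 4036 to 4367 FPKM in SN14. ELIP, an early light-induced protein gene, stood at 1445 to 1676 FPKM in HN44 and 1300 to 1626 FPKM in SN14. The least abundant genes of the list, named after their values were seen, had the largest differences. LOC547819 stood at 12.1, 155 and 71.7 FPKM in HN44, against 1298, 256 and 507 FPKM in SN14 (log2 difference -3.38 ± 0.97, SE; adjusted p = 0.0931). LHCB1-7 and LOC100793702, also light-harvesting genes by symbol or synonym, had log2 differences of -2.11 and -1.47 with limma adjusted p of 0.126 and 0.179. The libraries of LOC100793702 overlapped, at 228 to 1313 FPKM in HN44 and 1177 to 2219 FPKM in SN14. The differences of LOC547819, LHCB1-7 and LOC100793702 were larger than those of the small subunit genes, and their SE of 0.61 to 0.97 were larger too. Without HN44-3 the limma adjusted p of LOC547819, LHCB1-7 and LOC100793702 were 0.287, 0.334 and 0.389. The small subunit genes summed to 3.28, 4.30 and 3.53 times this list in the HN44 libraries, against 4.60, 5.55 and 5.09 times in those of SN14. That ratio did not overlap between the genotypes either.

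In the chlorophyll and haem list limma called none of 4 genes, and 2 had an unadjusted p under 0.05, where 3.78% and 27.3% of all tested genes did. The median log2 difference was -0.39, against 0.17 for all tested genes. CHLI, for a subunit of magnesium chelatase, stood at 78.7, 176 and 119 FPKM in HN44, against 367, 210 and 248 FPKM in SN14 (log2 difference -1.17 ± 0.34, SE; adjusted p = 0.0965). Without HN44-3 the limma adjusted p of CHLI was 0.318. HEMB, for an enzyme of early tetrapyrrole synthesis, stood at 83.5 to 152 FPKM in HN44 and 160 to 214 FPKM in SN14. CHLH, the most abundant gene of the list, stood at 235 to 276 FPKM in HN44 and 201 to 282 FPKM in SN14. HEMG stood at 8.05 to 9.53 FPKM in HN44 and 8.08 to 9.51 FPKM in SN14. The log2 differences of CHLH and HEMG were 0.04 and -0.04, and their libraries overlapped. The genes CHLI and HEMB, like LOC547605 and RBCS1, were lowest in HN44-1 and lower in HN44 without overlap. No such overlap, with lower values in HN44, was found in 10.5% of all tested genes and 21.2% of those that averaged at least 50 FPKM. The Calvin cycle list held FBP and FBA, taken from their symbols as fructose bisphosphatase and aldolase genes, and neither passed (0 at an unadjusted p under 0.05). FBP stood at 202 to 226 FPKM in HN44 and 157 to 347 FPKM in SN14. Of 9 tested genes in the photorespiration and carbon supply list, 1 fell and none rose, where 1.44% of all tested genes fell and 2.33% rose. It was LOC100820574, a phosphoenolpyruvate carboxylase gene with the synonym Gmppc2, at 17.0 to 18.6 FPKM in HN44 and 34.2 to 49.3 FPKM in SN14 (limma adjusted p = 0.029, and 0.189 without HN44-3). The most abundant gene of that list, the serine hydroxymethyltransferase gene LOC100499634, stood at 1193 to 1488 FPKM in HN44 and 1015 to 1327 FPKM in SN14.

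**Figure D5:**
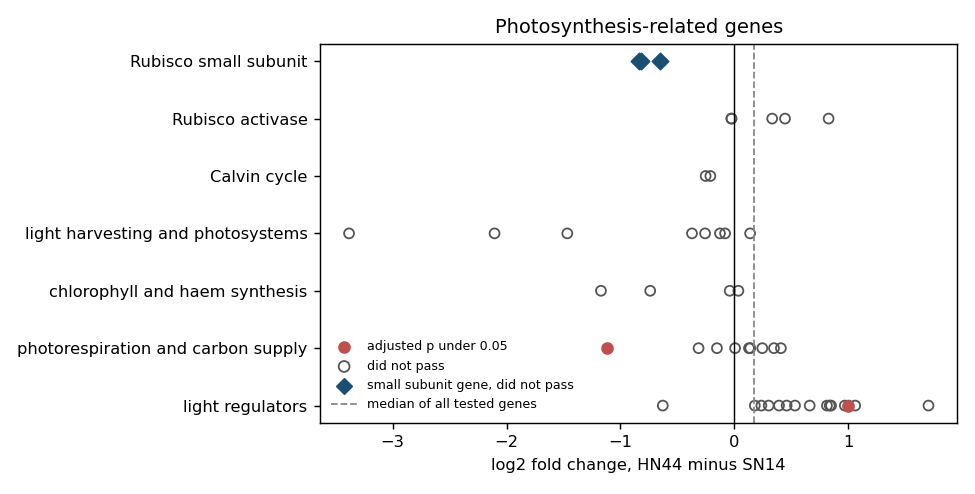
Log2 fold change, HN44 minus SN14, of the small subunit genes (diamonds) and of the tested genes of 6 related lists (circles), with genes past an adjusted p of 0.05 filled in red. The small subunit genes lie at -0.84 to -0.65, the activase genes at -0.02 to 0.83, and the dashed line marks the median of all tested genes at 0.17.

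The patterns over the 6 libraries were compared by the root mean square difference of log2(FPKM + 1), centred on each gene's mean, among 2160 genes that averaged at least 50 FPKM. RBCS1 differed from LOC547605 by 0.126 on this scale, while RBCS2 differed by 0.477 from LOC547605 and by 0.402 from RBCS1. The median over the 2160 genes was 0.599 for their difference from LOC547605. By this measure RBCS2 followed the other copies less closely than they followed each other. It stood at 10661 FPKM in SN14-3, against 21643 and 20478 FPKM in SN14-1 and SN14-2. The separate levels of RBCS2 and LOC547605 are uncertain, as their gene models overlap. The genes most like the summed small subunit level were LOC100780777 (0.055), LOC100800374 (0.065), LOC100788221 (0.065), LOC100784482 (0.067) and LOC100818553 (0.076). LOC100780777 stood at 43.5, 70.6 and 53.3 FPKM in HN44, against 99.5, 92.4 and 101 FPKM in SN14. The 3 genes most like LOC547605 alone were LOC100789413 (0.063), LOC100805637 (0.064) and LOC100796954 (0.071), and those most like RBCS1 were LOC100788221 (0.061), LOC100784482 (0.089) and LOC100814232 (0.101).

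The 3 genes most like RBCS2 were LOC100305981 on chromosome 15 (0.108), LOC100794126 on chromosome 6 (0.109) and LOC100499875 on chromosome 3 (0.125). LOC100794126 stood at 36.7, 47.4 and 38.4 FPKM in HN44, against 94.1, 90.6 and 37.8 FPKM in SN14. Each of these genes was low in SN14-3 among the SN14 libraries, as RBCS2 was. They were chosen for likeness to RBCS2 over the same libraries, so this follows from the choice. With 6 libraries, of which HN44-3 lies between 2 others, many genes share a pattern, and these values are a description.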

How the data were processed

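Leaf RNA of 3 HN44 and 3 SN14 libraries was measured as FPKM per gene, deposited by the authors in 1 table, per the file headers. RSEM 1.2.12, DESeq2 1.4.5, Bowtie2 2.2.5 and HISAT2 2.0.4 are listed without a role, per the submitters' processing notes, and the sources used here give no build. Symbols were matched for 37544 of 38907 NCBI numbers in a RefSeq table of assembly Glycine_max_v4.0. The members and lists were chosen with earlier results of these data known. Lists match symbols or synonyms, and genes are named by member, by list (up to 4 of the highest mean, plus any that passed) and by likeness. No table of proteins was used, so further copies were not sought.

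Genes that reached 1 FPKM in 3 or more libraries were tested with limma 3.58.1 (R 4.3.3, variance trend, pseudocount 1, Benjamini-Hochberg adjustment, threshold 0.05), tested on simulated data. The simulation drew independent libraries with the SN14 spread in both genotypes, so it does not cover the HN44 spread or the position of HN44-3. Shares were compared by exact permutation (scipy 1.17.1). FPKM carries no depth, so counting error is unknown.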

Additional observations from a re-analysis of the deposited data

How the results depend on the processing

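Over 15 alternatives, the log2 difference of each small subunit gene, HN44 minus SN14, was below 0 in 14. It was 0 under quantile normalization, where each gene held the same rank in every library and was set to 1 value. The pseudocount, filter, variance trend and replicate block settings left the difference of these abundant genes as it was, so they do not test its direction. Nor could leaving out a library reverse LOC547605 or RBCS1, whose libraries did not overlap between the genotypes. Leaving out each library gave -1.04 to -0.60 for LOC547605, -1.10 to -0.58 for RBCS1 and -0.98 to -0.47 for RBCS2. RBCS1 passed in 1 alternative, without HN44-2 (adjusted p = 0.0494 in limma, range 0.0494 to 1.0), and LOC547605 and RBCS2 in 0. That alternative kept HN44-3, which may not be a separate replicate. The share of the FPKM total did not overlap between the genotypes either, so leaving out a library could not reverse it. It kept its direction under all alternatives run (-6.65 to -4.22 percentage points when each library was left out). The balance did not: leaving out each library gave -2.40 to 2.97 points for LOC547605, with 2.97 without SN14-3 and 0.139 without HN44-1. It gave -1.38 to 0.524 for RBCS1, with 0.524 without HN44-1 and 0.251 without SN14-2, and -1.90 to 2.61 for RBCS2, with -1.90 without SN14-3 and -0.663 without HN44-1. The number of genes past the threshold was 1025 with 6 libraries and 150 to 961 when each library was left out, 150 without HN44-3, 276 without HN44-1 and 478 without SN14-3. It was 15 without HN44-3 with the filter applied again and 119 without HN44-3 after median-of-ratios scaling, both chosen after seeing the data. With the replicate number as a block it was 174, and no small subunit gene changed its call. Same-numbered libraries had correlations of deviations of -0.223, -0.436 and 0.03, so the numbers were not taken as pairs. Balance weighted by gene length was not run, as the table gives spans and no transcript lengths.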

Other observations

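Light receptors and light-response factors that act on photosynthesis genes were measured as a list of 16 genes, of which 1 passed as higher in HN44 and 15 did not pass, where 2.33% of all tested genes passed as higher in HN44. An unadjusted p under 0.05 was found for 7 of the 16, against 27.3% of all tested genes, and 7 were higher in HN44 without overlap, against 23.3%. GBF2 alone had a log2 difference below 0, and the median was 0.74 against 0.17 for all tested genes. After median-of-ratios scaling the median was 0.57. The gene that rose was PHYA3, a phytochrome A gene, at 2.31 to 3.05 FPKM in HN44 and 0.44 to 0.98 FPKM in SN14 (limma adjusted p = 0.0447, and 0.205 without HN44-3). All its SN14 libraries were below 1 FPKM, so it met the filter of 1 FPKM through HN44 alone. Its values were also close to the pseudocount of 1, and its call is not taken as support for a difference. The blue light receptor gene LOC100797839, with the synonym GmCRY1b1, stood at 114, 90.3 and 103 FPKM in HN44, against 64.1, 34.4 and 57.8 FPKM in SN14 (adjusted p = 0.0788 in limma, and 0.302 without HN44-3). Its values are in the order of libraries 1, 2 and 3. PIF3, for a phytochrome-interacting factor, stood at 33.2 to 84.0 FPKM in HN44 and 20.4 to 47.2 FPKM in SN14. The part of these genes in the small subunit levels was not tested.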
